A study of Oryza sativa Japonica Group with 9 samples.

Results

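The loci described here stood apart in the shoot apex of rice seedlings labelled jmj705 and not in those of wild type or of wox11. They number 43 of the 55706 loci that carry a gene name and a valid estimate in all 6 RNA libraries. 33 (0.0592% of those loci) were higher in jmj705 and 10 (0.018%) were lower. A locus was taken as higher where both jmj705 libraries had at least 2 FPKM and at least 2 times the largest of the other 4 values. It was taken as lower where all 4 other libraries had at least 2 FPKM and both jmj705 libraries had at most 0.5 times the smallest of them. FPKM is the number of fragments scaled by transcript length and library size. Since the loci were chosen by these values, the difference between jmj705 and the other libraries is described here and not tested. The same rule set apart 34 higher and 14 lower loci for wox11 alone, and 13 higher and 51 lower loci for wild type alone, so that a pair of libraries stood apart on this scale for each genotype.

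The shoot apex is the tip of the shoot, with the meristem and the youngest leaves. Tips of 2 to 3 mm were cut from 5-day-old Hwayoung seedlings. Wild type, the wox11 mutant and the jmj705 mutant gave 2 RNA libraries each. No source used here gives the lesion in either mutant or the number of plants pooled in a library. Chromatin was immunoprecipitated with anti-FLAG from apices of the same age with JMJ705 over-expressed, either in a wild-type (oxJ5) or in a wox11 background (wox11/oxJ5), which gave 1 peak list each. No chromatin library of the jmj705 mutant was analysed here.

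JMJ705 is a jumonji-domain enzyme that takes methyl groups off H3K27me3, a histone mark that Polycomb complexes set and that goes with silenced genes. WOX11 is a WUSCHEL-related homeobox protein that binds DNA and is known in rice for crown root growth. Demethylases such as JMJ705 act against the mark, which in plants often covers genes that are off in most tissues.

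The genotype jmj705 is known from the labels alone. The JMJ705 transcript (LOC_Os01g67970) had 7.41 and 6.73 FPKM in the wild-type libraries, 8.39 and 8.10 in wox11, and 13.7 and 12.5 in the libraries labelled jmj705. It was thus highest in the libraries of the mutant, with a log2 difference to wild type of 0.81 (SE 0.13; limma adjusted p = 0.0634), which misses the threshold. WOX11 (LOC_Os07g48560) had 4.52 and 5.00 FPKM in wild type, 1.49 and 1.11 in wox11, and 4.57 and 7.56 in jmj705. The meristem genes OSH1, OSH15 and OSH71 lay between 26.9 and 69.2 FPKM in all 6 libraries, the secondary wall genes CESA4, CESA7 and CESA9 between 8.23 and 23.5, and the seed genes GluA1 and RAMY1A below 1. Of the 3 secondary wall and 5 meristem genes tested, 0 passed in jmj705 against wild type by limma, in a fit of all 6 libraries where 0.321% of loci were called higher and 0.0791% lower. At an unadjusted p under 0.05 there were 0 and 2 (both lower), against 6.15% of loci higher and 5.85% lower. In wox11 against wild type 0 passed with adjustment. Unadjusted there were 1 (higher) and 3 (lower), against 4.7% of loci higher and 5.84% lower. The 3 lower were OSH71, PLA1 and WOX4, with log2 differences of -0.569, -0.482 and -0.535. In whole apices, fewer cells of a type and less RNA per cell cannot be told apart. Total read depth is unknown, since the tables hold no counts.

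The 33 higher loci ranged outside jmj705 from listed at 0 to a mean of 51.0 FPKM. In 17 of them all 4 other libraries were below 1 FPKM, in 5 below 0.1, and in 2 the locus was listed at 0 in all 4. In 10 of them every other library had at least 1 FPKM. The rule caps these values, and over all 55706 loci 60.8% were below 1 FPKM in all 4 libraries, 50.4% below 0.1, and 35.2% at 1 or more in each. The mean level in jmj705 ran from 2.28 to 254 FPKM, with 10 loci at 10 FPKM or more. On the log2(FPKM + 1) scale, where differences of low loci come out too small, the median difference between jmj705 and the other 4 libraries was 1.97, with a range of 1.19 to 7.28. Over all 18851 expressed loci (at least 2 FPKM in both libraries of some genotype) the median was -0.011. In 14 of the 33 the authors' confidence bounds of both jmj705 libraries lay above those of all other libraries. The rule already sets these values apart and the share over all loci was not counted, so this is a description. Replicate 2 of jmj705 was the higher of the pair in 24 of 33, against 51.2% of expressed loci. The files pair these loci with no description, and 1 of the 33 was matched to a named gene.

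**Figure D1:**
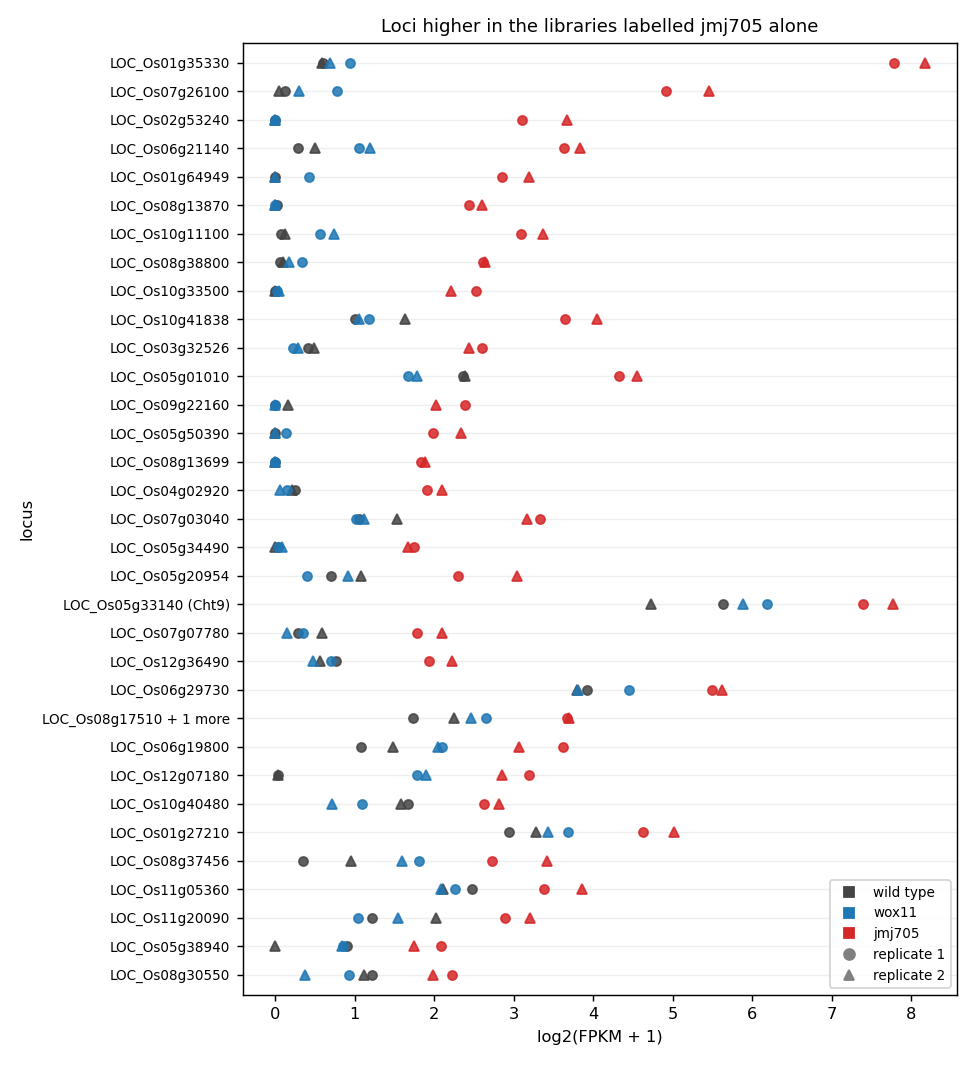
Level of each of the 33 higher loci in each of the 6 libraries, as log2(FPKM + 1), with the locus on the vertical axis, colour for genotype and shape for replicate, ordered by the margin between jmj705 and the others. The red jmj705 points lie to the right of all others in every row, as the rule demands; LOC_Os01g35330 is the farthest apart and Cht9 has the highest level in the other 4 libraries, with a mean of 51.0 FPKM.

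LOC_Os01g35330, on chromosome 1 (19549142 to 19550352), stood farthest apart. It had 0.518 and 0.504 FPKM in wild type, 0.919 and 0.611 in wox11, and 220.1 and 287 in jmj705. Its lowest jmj705 value was 239 times its highest value elsewhere, and the log2 difference was 7.28. Below 1 FPKM in wild type and wox11, it was the highest of the 33 in both jmj705 libraries.

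LOC_Os07g26100, on chromosome 7 (14973696 to 14975031), had the next widest margin. It had 0.089 and 0.0289 FPKM in wild type, 0.715 and 0.227 in wox11, and 29.2 and 42.7 in jmj705, a log2 difference of 4.87. Both wox11 values were above both wild-type values, and all 4 were below 1 FPKM.

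LOC_Os02g53240, on chromosome 2 (32584399 to 32593187), was listed at 0 in all 4 other libraries and at 7.59 and 11.7 FPKM in jmj705. It shares its coordinates with a second entry, LOC_Os02g53230, which had 0.830 and 0.477 FPKM in wild type, 0.836 and 0.528 in wox11, and 2.48 and 1.83 in jmj705. The authors' confidence bounds of LOC_Os02g53240 in jmj705 ran from 0 to 28.4 FPKM, and so did not lie clear of the listed 0. Summed over both entries the log2 difference was 2.94, so the place as a whole was higher in jmj705.

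LOC_Os06g21140 (chromosome 6, 12212221 to 12213215) had 0.215 and 0.416 FPKM in wild type, 1.08 and 1.29 in wox11, and 11.4 and 13.2 in jmj705. The wox11 libraries lay between the others, much closer to wild type. LOC_Os01g64949 (chromosome 1, 37693983 to 37696532) was listed at 0 in 3 of the 4 other libraries, at 0.342 in wox11 replicate 1, and at 6.22 and 8.10 FPKM in jmj705. LOC_Os08g13870 (chromosome 8, 8282962 to 8285334) had 0.0152 FPKM in wild-type replicate 1, was listed at 0 in the other 3, and had 4.43 and 5.05 in jmj705. Both of these loci were close to silent outside jmj705. The authors' bounds did not lie apart for LOC_Os01g64949 (from 0.204 FPKM in jmj705, up to 0.990 elsewhere). They did for LOC_Os08g13870 (from 1.91 FPKM in jmj705, up to 0.0565 elsewhere).

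LOC_Os10g11100 (chromosome 10, 6138059 to 6143184) had 0.051 and 0.0874 FPKM in wild type, 0.473 and 0.672 in wox11, and 7.54 and 9.32 in jmj705. LOC_Os08g38800 (chromosome 8, 24524334 to 24529240) had 0.0385 and 0.0719 FPKM in wild type, 0.257 and 0.130 in wox11, and 5.10 and 5.21 in jmj705. LOC_Os10g33500 (chromosome 10, 17652101 to 17661124) was listed at 0 in wild type, with 0.0188 and 0.0319 FPKM in wox11 and 4.75 and 3.64 in jmj705. In each of these 3 loci both wox11 libraries lay above both wild-type libraries, at levels below 1 FPKM. LOC_Os10g41838 (chromosome 10, 22516025 to 22517975) had 1.00 and 2.09 FPKM in wild type, 1.26 and 1.07 in wox11, and 11.5 and 15.5 in jmj705. It was the only one of these 10 widest margins with at least 1 FPKM in every library.

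The other 23 higher loci had log2 differences between 1.19 and 2.39. At the edge of the rule, LOC_Os01g27210 had a ratio of 2.01 between its lowest jmj705 value (23.6 FPKM) and its highest other value (11.8), and LOC_Os11g05360 a ratio of 2.07. Just outside, LOC_Os07g01904 had 15.9 and 17.9 FPKM in jmj705 against at most 7.94 elsewhere, a ratio of 1.999, and LOC_Os01g73700 had a ratio of 1.96. The edge is therefore a matter of degree and not a gap in the values.

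Cht9 (LOC_Os05g33140, chromosome 5, 19435358 to 19436734) was the higher locus that was matched to a name. It is one of the rice chitinase genes, whose products cut chitin, a polymer of fungal cell walls, and which are known as defence genes in plants. Cht9 had 48.6 and 25.4 FPKM in wild type, 71.8 and 58.3 in wox11, and 167 and 217 in jmj705. The 3 genotypes did not overlap, with wox11 above wild type and jmj705 above both. Between wox11 and wild type the log2 difference was 0.86. It was 1.32 without wild-type replicate 1 and 0.41 without wild-type replicate 2, so its size depended on the wild-type library kept. The rule bounds these 4 values, so this is a description.

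Chitinase genes other than Cht9 were looked at as a list (Cht1 to Cht5, Cht7, Cht8 and Cht10 to Cht12), which holds 10 genes with an entry of their own. In a fit of all 6 libraries, added after the data were seen, 8 of the 10 could be tested and 1 of them, Cht11, rose in jmj705 against wild type. Over all 21480 loci of that fit, 0.321% were called higher and 0.0791% lower in jmj705, and 0.456% higher and 0.382% lower in wox11. Cht11 (LOC_Os03g04060) had 2.42 and 1.14 FPKM in wild type, 7.55 and 3.73 in wox11, and 11.9 and 11.5 in jmj705. Its log2 difference in jmj705 was 2.23 (SE 0.32, limma adjusted p = 0.0483). The call held in 6 of 15 alternatives (limma adjusted p 0.0284 to 0.21). It ended without wild-type replicate 1 (0.0881) or 2 (0.0926) and without jmj705 replicate 1 (0.154) or 2 (0.182).

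Of the other chitinase genes, Cht1 had 3.64 and 2.79 FPKM in wild type, 8.92 and 5.70 in wox11, and 9.69 and 10.0 in jmj705 (limma adjusted p = 0.0562 for jmj705). Cht3 had 1.25 and 1.09 FPKM in wild type, 3.76 and 2.51 in wox11, and 4.06 and 4.85 in jmj705 (adjusted p = 0.052, limma). Cht8 had 0.666 and 0.381 FPKM in wild type, 3.58 and 1.95 in wox11, and 2.74 and 1.84 in jmj705 (adjusted p = 0.162, limma). For Cht1, Cht3, Cht8 and Cht11 both libraries of each mutant lay above both wild-type libraries. Over all expressed loci both wox11 libraries did so in 19.8%, and the share for jmj705 or for both mutants was not counted. Cht1 and Cht3 lie close together on chromosome 6 (starts 30890711 and 30887215). At an unadjusted p under 0.05, 4 of the 8 were higher and 0 lower in jmj705, and 4 higher and 1 lower in wox11, while 0 passed in wox11 with adjustment. Over all loci of the fit the unadjusted shares were 6.15% higher and 5.85% lower in jmj705, and 4.7% higher and 5.84% lower in wox11. The list's median log2 difference was 1.11 in jmj705 and 0.87 in wox11, against -0.018 and -0.016 over all loci tested. Both contrasts use the same wild-type libraries. Whether the chitinase genes differ from other genes in this was not tested.

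**Figure D2:**
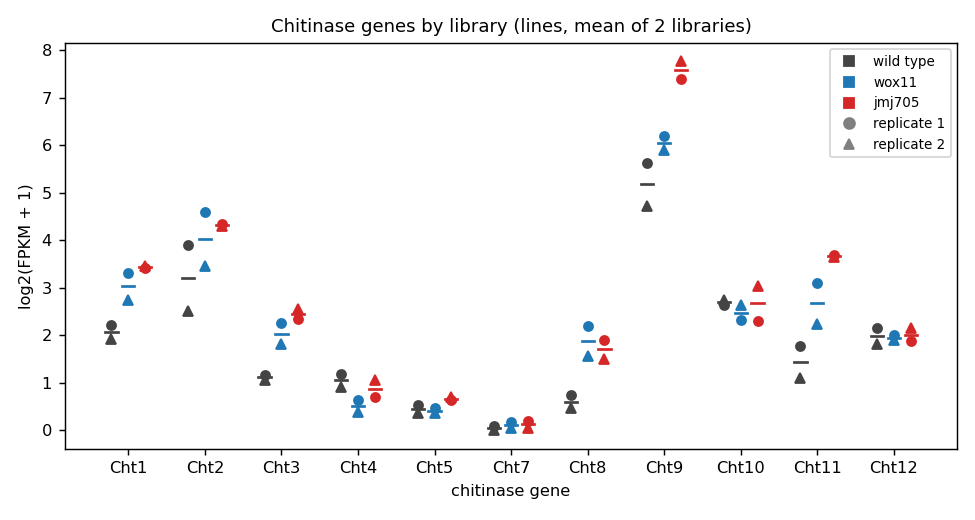
Level of 11 chitinase genes in each library as log2(FPKM + 1), with the gene on the horizontal axis, colour for genotype, shape for replicate and a line at the mean of the 2 libraries. Cht9 has the highest level and stands highest in jmj705, while for Cht1, Cht3, Cht8 and Cht11 both mutants lie above wild type. Cht8 has its highest value in wox11. Over all expressed loci both wox11 libraries lie above both wild-type libraries in 19.8%.

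The 10 lower loci were all expressed at 2 FPKM or more outside jmj705, as the rule demands, with means of 2.20 to 28.0 FPKM. Their median log2 difference was -1.08, with a range of -3.56 to -0.83. For 0 of the 10 did the authors' confidence bounds of both jmj705 libraries lie below those of all others. Here too the share over all loci was not counted. Of the 10, 2 were matched to a named gene.

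**Figure D3:**
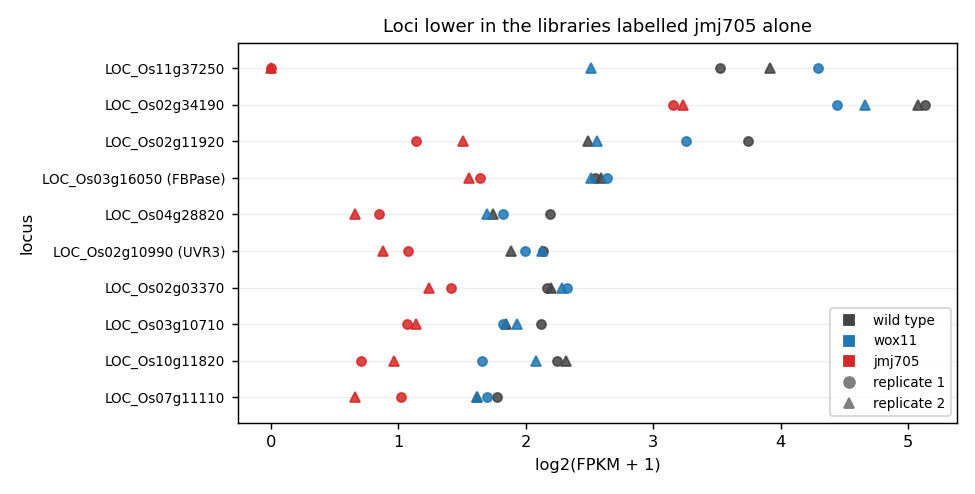
Level of each of the 10 lower loci in each of the 6 libraries, as log2(FPKM + 1), with colour for genotype and shape for replicate. The red jmj705 points lie to the left of all others, at 0 for LOC_Os11g37250 and between 0.579 and 8.43 FPKM for the rest.

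FBPase (LOC_Os03g16050, chromosome 3, 8841268 to 8843069) encodes a fructose-1,6-bisphosphatase of the chloroplast, an enzyme of the Calvin cycle. It had 4.83 and 5.02 FPKM in wild type, 5.22 and 4.70 in wox11, and 2.12 and 1.94 in jmj705, a log2 difference of -0.97. The wild-type and wox11 libraries overlapped. Pooled over both genotypes, their mean was 4.94 ± 0.224 FPKM (SD, n = 4 libraries), which is not the spread between replicates of a single genotype.

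Genes that act beside FBPase were looked at for comparison, in the fit of 6 libraries. CFBP1, the gene of the cytosolic fructose-1,6-bisphosphatase, had 1.33 and 0.682 FPKM in wild type, 1.00 and 1.11 in wox11, and 0.530 and 0.383 in jmj705 (limma adjusted p = 0.473). RBCS1, a small-subunit gene of Rubisco, had 112 and 102 FPKM in wild type, 116 and 104 in wox11, and 69.3 and 67.7 in jmj705 (limma adjusted p = 0.107). Like FBPase, RBCS1 was lower in both jmj705 libraries and overlapped between wild type and wox11. Of 4 such genes, with RBCS-C and RCA, 1 fell in jmj705 (RCA, the Rubisco activase gene, at limma adjusted p = 0.0487, a call that held in 1 of 15 alternatives and ended without any single library, at 0.0853 to 0.258). In wox11, 2 fell: RCA (limma adjusted p = 0.00852), whose call ended without wild-type replicate 1 (0.0604) or wox11 replicate 1 (0.0721) or 2 (0.106), and RBCS-C (0.0319), whose call ended without any single library (0.0501 to 0.226). Over all loci of the fit, 0.0791% were called lower in jmj705 and 0.382% in wox11. At an unadjusted limma p under 0.05, 3 of the 4 were lower in jmj705 and 2 in wox11, and 0 were higher. The shares of all loci lower by that measure were 5.85% and 5.84%. The list's median log2 difference was -0.60 in jmj705 and -0.40 in wox11. Whether these genes differ from other genes in this was not tested. Members of the Rubisco small-subunit family are near-identical, so their reads may be divided between loci. RCA and CFBP1 each share their coordinates with another entry, so their reads may be divided as well, and no sum over entries was made.

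UVR3 (LOC_Os02g10990, chromosome 2, 5835438 to 5838980) carries the name of the (6-4) photolyase of Arabidopsis, which repairs ultraviolet lesions of DNA with the help of light. It had 3.39 and 2.70 FPKM in wild type, 2.98 and 3.36 in wox11, and 1.11 and 0.846 in jmj705, a log2 difference of -1.05. Its wild-type and wox11 libraries overlapped. PHR, the gene of the other rice photolyase, which repairs cyclobutane pyrimidine dimers, had 14.7 and 11.7 FPKM in wild type, 12.3 and 10.6 in wox11, and 7.51 and 5.63 in jmj705. PHR was also lowest in jmj705, with a log2 difference of -0.91 to wild type (SE 0.18, limma adjusted p = 0.111), which misses the threshold.

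LOC_Os02g34190 (chromosome 2, 20450544 to 20454605) had the highest level among the lower loci. It had 34.0 and 32.8 FPKM in wild type, 20.7 and 24.3 in wox11, and 7.92 and 8.43 in jmj705. The genotypes stood in 3 steps with no overlap, and the step from wild type to wox11 had a log2 difference of -0.55. LOC_Os02g11920 (chromosome 2, 6171842 to 6173902) had 12.4 and 4.60 FPKM in wild type, 8.58 and 4.90 in wox11, and 1.20 and 1.84 in jmj705, with a wide spread within wild type. LOC_Os10g11820 (chromosome 10, 6548515 to 6555195) had 3.73 and 3.99 FPKM in wild type, 2.15 and 3.24 in wox11, and 0.633 and 0.960 in jmj705. In this locus too both wox11 libraries lay between those of wild type and jmj705.

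LOC_Os02g03370 (chromosome 2, 1366145 to 1369290) had 3.48 and 3.58 FPKM in wild type, 4.02 and 3.86 in wox11, and 1.67 and 1.37 in jmj705. LOC_Os03g10710 (chromosome 3, 5472128 to 5474844) had 3.35 and 2.60 FPKM in wild type, 2.54 and 2.83 in wox11, and 1.09 and 1.20 in jmj705. LOC_Os07g11110 (chromosome 7, 6134015 to 6136780) had 2.43 and 2.08 FPKM in wild type, 2.24 and 2.06 in wox11, and 1.03 and 0.581 in jmj705. These 3 had the smallest log2 differences of the lower loci. LOC_Os07g11110 and LOC_Os02g03370 lie just inside the margin, with ratios of 2.01 and 2.08, and LOC_Os03g17174 and LOC_Os08g30150 just outside, with 1.80 and 1.74.

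For 7 of the 43 loci (16.3%, against 17.2% of expressed loci) another entry of the files has the same coordinates, so that reads can be divided between entries. In 2 of the 7 the sum over the entries lay the other way from the member. At LOC_Os05g01010 (chromosome 5, 33302 to 38061) the member entry had 4.15 and 4.22 FPKM in wild type, 2.18 and 2.44 in wox11, and 19.0 and 22.5 in jmj705. The other entry of LOC_Os05g01010 had 13.2 and 11.7 FPKM in wild type, 11.5 and 11.7 in wox11, and 7.22 and 6.26 in jmj705. One entry was thus higher and its partner lower in jmj705, and their sum had a log2 difference of 0.81 against 2.39 for the member alone.

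At LOC_Os04g28820 (chromosome 4, 17061908 to 17070900) the member entry had 3.56 and 2.36 FPKM in wild type, 2.54 and 2.24 in wox11, and 0.804 and 0.579 in jmj705. Its partner had 7.15 and 6.35 FPKM in wild type, 5.95 and 6.33 in wox11, and 8.35 and 10.2 in jmj705. The sum had a log2 difference of 0.12, so the place as a whole was not lower in jmj705. LOC_Os11g05360 lies with LOC_Os11g05370, which had 286 to 459 FPKM, and their sum had a log2 difference of -0.28. For LOC_Os07g07780 and LOC_Os08g30550 the sum was higher in jmj705, by 1.20 and 1.26.

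LOC_Os11g37250 had 10.5 and 14.1 FPKM in wild type, 18.6 and 4.69 in wox11, and was listed at 0 in both jmj705 libraries. It is 1 of 45 entries with the same coordinates, a stretch of chromosome 11 from 21925866 to 22202954. Summed over the 45 entries the libraries held 127 to 136 FPKM, with a log2 difference of -0.055. Whether the listed 0 is a failed estimate was not tested. Without loci that share coordinates, 28 higher and 8 lower loci met the rule.

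**Figure D4:**
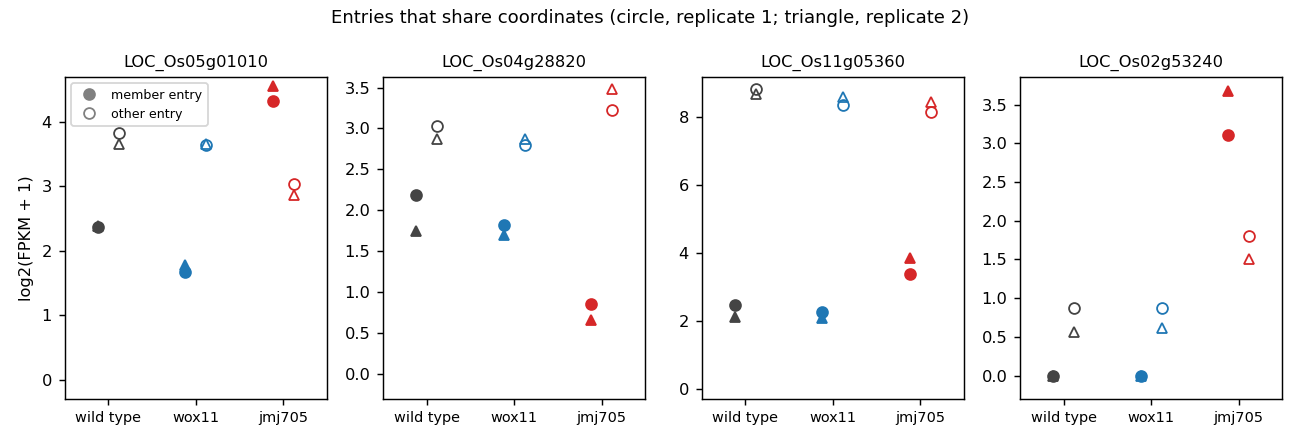
Level of 4 members (filled) and of the entry with the same coordinates (open) in each genotype, as log2(FPKM + 1), with circles for replicate 1 and triangles for replicate 2. For LOC_Os05g01010 and LOC_Os04g28820 the pair moves in opposite directions in jmj705, while for LOC_Os02g53240 both entries are higher.

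The rule compares jmj705 with the other 4 libraries, and in doing so it bounds the wild-type and wox11 values. Loci with a like difference in wox11 were thereby left out, so what follows on wox11 against wild type is a description and not independent of the rule. In a fit of the 4 libraries, 195 of 21014 loci passed (0.928%), 103 of them higher in wox11 (0.49%). Of the 43 loci set apart in jmj705, 25 passed the filter of 1 FPKM in 2 of these libraries and 1 was past the threshold. At an unadjusted p under 0.05 there were 10 of the 25, and 11.8% of all loci in the fit. The median log2 difference was 0.036 over the 33 higher and -0.15 over the 10 lower loci, beside -0.021 over all expressed loci.

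LOC_Os12g07180, on chromosome 12 (3525515 to 3528010), was that locus. It had 0.0224 and 0.0219 FPKM in wild type, 2.45 and 2.72 in wox11, and 8.13 and 6.19 in jmj705. The 3 genotypes did not overlap, and wox11 was above wild type by 1.81 on the log2 scale (SE 0.18, limma adjusted p = 0.0167 in the fit over all loci). With no FPKM filter that p was 0.0695 (limma, adjusted), in a range of 0.00722 to 0.0695. Without either wox11 library the locus had too few values over the filter to be tested. The rule bounds the wild-type and wox11 values of this locus, so its p is a description and no independent test.

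In the other higher loci the wox11 libraries were divided. Of all 33, both wox11 libraries lay above both wild-type libraries in 13, below in 5, and overlapped them in 15. LOC_Os08g37456 had 0.275 and 0.940 FPKM in wild type, 2.51 and 2.02 in wox11, and 5.60 and 9.67 in jmj705 (log2 difference of wox11 and wild type 1.05). LOC_Os10g40480 went the other way, with 2.19 and 1.98 FPKM in wild type, 1.13 and 0.635 in wox11, and 5.16 and 6.01 in jmj705 (log2 difference of wox11 and wild type -0.73). Of the 10 lower loci, both wox11 libraries lay below wild type in 2, above in 1 and overlapped in 7. Over all expressed loci the shares above and below were 19.8% and 23.4%.

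JMJ705 peaks were compared with the loci next, since the rule did not use them. A peak overlapped the locus or the 1 kb on either side of it in 2 of 43 loci in the oxJ5 list (4.65%, exact 95% interval 0.568 to 15.8%), against 3.98% of expressed loci. In the wox11/oxJ5 list it did so in 3 of 43 (6.98%, interval 1.46 to 19.1%), against 3.54%. Both shares were thus within counting error of that of expressed loci, and the intervals cover counting error only. The peaks come from plants that over-express JMJ705, with 1 library a background, so no difference between the backgrounds was tested.

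LOC_Os08g30550 (chromosome 8, 18797925 to 18814615) had a peak in both lists near the start of the locus in coordinates. It had 1.32 and 1.18 FPKM in wild type, 0.909 and 0.291 in wox11, and 3.68 and 2.94 in jmj705, and it was the higher locus with the smallest log2 difference. The oxJ5 peak had an authors' fold enrichment of 21.7, rank 34 of 1551, and a false discovery rate of 14.3%. The wox11/oxJ5 peak at this locus had a fold enrichment of 10.9, rank 163 of 1309, and a false discovery rate of 33.3%.

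LOC_Os05g20954 had a peak in the wox11/oxJ5 list alone, 152 bp beyond the locus, with a fold enrichment of 9.10 by the authors. LOC_Os05g20954 had 0.623 and 1.11 FPKM in wild type, 0.314 and 0.886 in wox11, and 3.91 and 7.20 in jmj705. LOC_Os11g37250 held a different peak in each list, in a stretch of 277 kb. The 2 highest loci in jmj705, LOC_Os01g35330 and Cht9, had no peak within 1 kb, and Cht9 had an oxJ5 peak 2366 bp away with a fold enrichment of 7.09.

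The loci lay on all 12 chromosomes, with 0.971 per 1000 expressed loci on chromosome 9 and 5.25 on chromosome 10. Within 100 kb, 0 of 43 had another that stood apart the same way, which allows a share of up to 8.22% (exact 95% interval). Of expressed loci, 2.41% lay within 100 kb of one of the 43, whether higher or lower. That is a wider measure, so the shares are not directly comparable. The nearest pair was LOC_Os08g13699 and LOC_Os08g13870, both higher, 123 kb apart. LOC_Os08g13699 was listed at 0 in the other 4 libraries and had 2.58 and 2.70 FPKM in jmj705. On chromosome 2, UVR3 and LOC_Os02g11920, both lower, lay 336 kb apart. The nearest of the 43 to the JMJ705 gene itself was LOC_Os01g64949, at 1.80 Mb.

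The nearest expressed loci on either side were compared next, passing over loci that are themselves among the 43, which was the case for LOC_Os08g13699 and LOC_Os08g13870. Of 83 distinct neighbours, 71 (85.5%) lay within 0.5 log2 of no difference between jmj705 and the other 4 libraries, against 94.1% of expressed loci, of which 5.93% lay at or past 0.5. Medians were -0.025 beside higher loci and -0.026 beside lower loci, with a range of -0.69 to 1.17, and 4 neighbours lay past 1. Of these, LOC_Os11g05380 had 1.20 and 8.55 FPKM in wild type and 31.3 and 3.04 in jmj705, so that 1 library made its difference. LOC_Os11g20160, beside LOC_Os11g20090, had 5.89 and 6.50 FPKM in wild type, 8.39 and 6.69 in wox11, and 13.8 and 16.2 in jmj705, above all other libraries. LOC_Os09g22000, beside LOC_Os09g22160, had 5.10 and 6.27 FPKM in jmj705 and at most 4.58 in wild type and wox11, and so also stood above all others in jmj705.

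LOC_Os10g40480 had several neighbours that were higher in jmj705 than the mean of the others. LOC_Os10g40510 had 57.2 and 36.7 FPKM in wild type, 12.5 and 4.21 in wox11, and 33.9 and 47.5 in jmj705. LOC_Os10g40520 had 23.3 and 13.3 FPKM in wild type, 2.23 and 2.01 in wox11, and 10.2 and 13.7 in jmj705. In both the low value was that of wox11, and jmj705 overlapped wild type. Cht2, which lies beside Cht9, had 13.9 and 4.68 FPKM in wild type, 23.0 and 9.94 in wox11, and 19.2 and 18.7 in jmj705. Its jmj705 values lay above wild type and inside the range of wox11 (limma adjusted p = 0.422 against wild type).

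**Figure D5:**
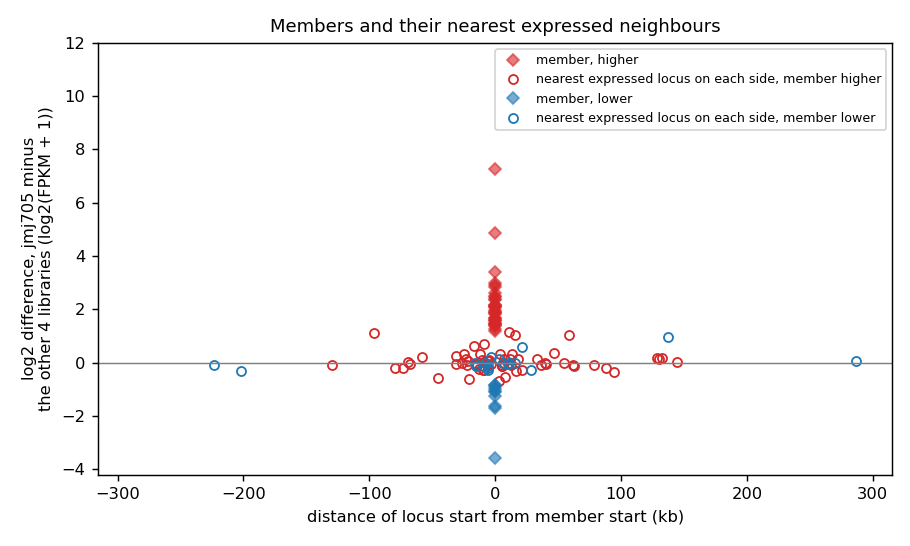
Log2 difference between jmj705 and the other 4 libraries for the 43 loci (diamonds at 0 kb) and for the nearest expressed locus outside the 43 on each side (open circles), against the distance between locus starts in kb, with red for higher and blue for lower loci. The neighbours lie between -0.69 and 1.17 and most are close to 0, while the loci themselves reach 7.28 and -3.56.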

How the data were processed

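Expression was read from 6 tables deposited by the authors, with FPKM per locus and its confidence bounds, per the file headers. The submitters' processing notes name Trimmomatic, TopHat and Cufflinks. The sources used here give neither these versions nor the genome build and annotation. Starts were counted from 1. The 2 deposited peak lists give, per the file headers of MACS 1.4.2 (p-value cutoff 1e-05), a false discovery rate in percent, a tag count, a fold enrichment (a ratio) and a score (the p-value as minus 10 times its log10). The total tags were 5043282 and 7509947, per the file headers. Of 57567 loci, 1848 without a name and 13 with a failed estimate were left out.

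Loci were chosen by the stated rule in Python 3.11.15. Differences are between means of log2(FPKM + 1). The contrast of wox11 with wild type was fitted with limma 3.58.1 in R 4.3.3 with a mean-variance trend, on loci that reached 1 FPKM in 2 or more of the 4 libraries. The p-values were adjusted by Benjamini-Hochberg at 0.05. A fit of all 6 libraries was added for genes that are no members. The design text calls the 2 libraries of each genotype biological repeats, and p-values reflect only their spread.

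Members and gene lists were chosen with earlier results of these data known. Loci are named by rule: the mutated genes, the 10 widest margins in each direction, loci with a gene name, loci with a peak or past the threshold in wox11, and those at the margin. Others (loci in shared stretches, neighbours, LOC_Os08g37456 and LOC_Os10g40480) were picked after their values were seen. Gene names came from a RefSeq table of another assembly, ASM3414082v1, where name and local position matched: 3 members and 29 of 30 other genes, Cht6 having no entry of its own. Lists planned by protein description were not run, since no table gave descriptions.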

Additional observations from a re-analysis of the deposited data

How the results depend on the processing

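The number of loci set apart depends on the rule. A margin of 1.5-fold gave 72 higher and 31 lower, and 3-fold gave 21 and 1. A floor of 1 FPKM gave 55 higher, and a floor of 5 gave 20 higher and 1 lower. Median-ratio scaling and quantile normalization gave 33 and 32 higher, 9 and 10 lower. Leaving out 1 library gave 38 to 166 higher and 10 to 38 lower. There were 166 higher without jmj705 replicate 2, and 138 higher and 38 lower without jmj705 replicate 1. There were 79 higher without wox11 replicate 1 and 18 lower without wild-type replicate 2. A left-out library takes a condition out of the rule, so these counts could only stay or grow. All 33 higher and 10 lower loci were kept each time. Of the members' log2 differences under other pseudocounts, scaling or left-out libraries, 295 stayed within 1 SD and 92 moved further. Of the latter, 34 came from a pseudocount of 0.1 FPKM and 40 from 5 FPKM. The SD pools the spread within jmj705 with that over the other libraries. Without 1 wild-type or wox11 library no difference could move by more than this SD. That all 43 stayed in each of those settings was thus fixed and is no support. That 0 reversed was fixed by the rule, which sets both jmj705 libraries beyond all others, and is no support. Within 500 kb, 9.30% of members had another of the same direction. Of expressed loci, 10.9% lay within 500 kb of a member of either direction, a wider measure, so the shares are not directly comparable.

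For wox11 against wild type, 1 locus passed with no FPKM filter, 122 with quantile normalization and 193 to 294 with 1 library left out (294 without wild-type replicate 2). Members past the threshold, a description since the rule bounds these values, numbered 0 with no filter or a filter of 5, and 0 to 2 with 1 library left out: 2 without wild-type replicate 1 (with Cht9), and LOC_Os11g37250 without wox11 replicate 1. With the replicate number as a block 474 loci passed, 1 of them a member; same-numbered libraries correlated in their deviations at 0.301 (wild type with wox11), 0.134 and 0.126, and the labels do not say that they were paired. In the fit of 6 libraries, 86 loci passed for jmj705 against wild type, and 11 to 86 with 1 library left out: 24 without wild-type replicate 1, 18 without jmj705 replicate 1 and 11 without replicate 2. Where an arm was left with 1 library, it was assumed to vary like the others. A false discovery rate of at most 5% left no wox11/oxJ5 peak, so that setting was not run there. In the oxJ5 list it left 1 member with a peak.

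With 2 libraries a genotype and unknown depth, values below 1 FPKM rest on few reads.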

Other observations

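Among the 1848 loci without a gene name, 10 were higher in jmj705 by the same margin and 0 were lower.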
